A study of Mus musculus with 4 samples.

Results

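The 2421 regions described here were stretches of open chromatin at the ends of protein-coding genes that 3 of 4 libraries of mouse retinal endothelial cells listed as peaks and the library control 1 did not. Open chromatin was profiled by ATAC-seq, in which a transposase inserts sequencing adapters into accessible DNA, in endothelial cells sorted by FACS from the retinas of C57BL/6 mice labelled P16. The Zeb1-CKO group had 2 libraries, with CKO in their titles and Zeb1 knockdown as their genotype. The control group also had 2 libraries, with the genotype given only as control. Each library was made from 2000 sorted cells. The labels give no alleles and no Cre driver. They also do not say whether 2 libraries with the same genotype are from different animals, and differences among them could be technical. All values below come from 4 lists of broad peaks on mm10, called separately for each library.

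Overlapping or touching peaks on the 19 autosomes and X were joined into regions, and a region was kept if Zeb1-CKO 1, Zeb1-CKO 2 and control 2 each had a peak in it, control 1 had none, and it lay within 1 kb of either end of a protein-coding gene. This gave 2421 regions, out of 25263 merged regions and 9483 at gene ends, and 2806 genes. The regions were thus chosen by presence and absence in the 4 lists, so their pattern of presence is a description and was not tested. They made up 25.5% of gene-end regions, and the same pattern held for 16.6% of all merged regions. Gene-end regions missing from only 1 of the other libraries were few by comparison, with 41 for Zeb1-CKO 1, 9 for Zeb1-CKO 2 and 63 for control 2. Another 3823 gene-end regions were held by all 4 libraries, and 764 by both Zeb1-CKO libraries and neither control.

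Gene starts are the most regularly open part of the genome. Many mammalian promoters are rich in CpG dinucleotides, and those of genes used by most cells keep a nucleosome-free stretch just upstream of the start, where general factors such as NF-Y, Sp-family and ETS-family proteins bind. Retinal endothelial cells line the vessels of the blood-retina barrier and depend on VEGF, Notch, BMP and Wnt signals. Zeb1 is a zinc-finger repressor that binds the E2-box, a form of E-box, and is known for silencing epithelial genes.

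Control 1 stood apart from the other libraries by the length of its list. The lists held 13689 and 19886 peaks in the Zeb1-CKO libraries and 7608 and 13672 peaks in the controls, for replicates 1 and 2 in each case. Read depth is unknown, so whether a peak is missing for want of reads cannot be told, and in bulk libraries fewer open cells and less opening per cell cannot be told apart. The labelled cell type was checked with 15 endothelial genes, of which 7 and 8 showed a peak at an end in the Zeb1-CKO libraries, against 4 and 7 in the controls. In the gene or its 10 kb flanks a peak was found for 14 and 15 in the Zeb1-CKO libraries, against 10 and 15 in the controls. Of 10 rod and cone genes, 0 and 6 showed a peak at an end in the Zeb1-CKO libraries, against 0 and 7 in the controls, and with the flanks these numbers were 5 and 10, against 3 and 10. Of 6 genes of Muller glia and astrocytes, Vim among them, 2 and 3 showed a peak at an end in the Zeb1-CKO libraries, against 3 and 2 in the controls. Of 5 leukocyte genes, 1 showed a peak at an end, in Zeb1-CKO 2 only, and with the flanks 1 and 2 had a peak, against 2 and 1. None of 6 inner neuron genes showed a peak at an end in any library, and with the flanks 1 and 0 had a peak, against 0 and 1. Of these short lists of other cells, only the glial one had gene-end peaks in every library. For 6 pericyte and smooth muscle genes no gene-end peak was listed in any library, and with the flanks 2 had a peak in Zeb1-CKO 2 only. In a longer list of 28 photoreceptor genes, 2 and 10 showed a peak at an end in the Zeb1-CKO libraries, against 2 and 11 in the controls. For 26 inner neuron genes these numbers were 2 and 5, against 0 and 1. For 18 leukocyte genes they were 1 and 2, against 1 and 0. For 16 pericyte and smooth muscle genes they were 1 and 2, against 0 and 1. The part of other cells in the results below was not tested.

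Promoters of some of the best-ranked regions are given as examples, and they do not stand for the set as a whole. Regions were ordered by the weakest of their 3 within-list percentile ranks, where 0 is the top of a list sorted by the authors' −log10 q. The first 5 of the 12 best-ranked regions that overlapped a RefSeq promoter (GRCm38.p6) are printed below as the 250 bases before a RefSeq start of the gene, which for Hook1 and 2310022A10Rik is not the outermost one, 5′ to 3′ on the gene's strand. Capitals mark matches to the searched motifs on either strand, which were GGGCGG (GC box), CCAAT (NF-Y), CAGGTG (E2-box), CCGGAAG (ETS), CACGTG (E-box), TGACGT (core of the CRE), TGANTCA (AP-1), GCGCATG (core of the NRF1 site), AAGATGG (core of the YY1 site) and TATAAA (the box bound by TBP). Adjoining capitals can be overlapping or abutting matches.
Hook1: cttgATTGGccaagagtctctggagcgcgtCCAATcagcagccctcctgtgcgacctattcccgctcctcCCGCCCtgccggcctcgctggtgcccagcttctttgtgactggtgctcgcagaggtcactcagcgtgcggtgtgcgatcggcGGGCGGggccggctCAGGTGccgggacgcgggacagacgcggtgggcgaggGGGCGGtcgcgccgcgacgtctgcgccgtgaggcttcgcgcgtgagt
Pold2: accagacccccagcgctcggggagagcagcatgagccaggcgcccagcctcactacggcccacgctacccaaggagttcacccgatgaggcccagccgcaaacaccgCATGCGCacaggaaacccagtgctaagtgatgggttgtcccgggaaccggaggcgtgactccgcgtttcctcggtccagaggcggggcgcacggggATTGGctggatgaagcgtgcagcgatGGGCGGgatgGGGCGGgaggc
2310022A10Rik: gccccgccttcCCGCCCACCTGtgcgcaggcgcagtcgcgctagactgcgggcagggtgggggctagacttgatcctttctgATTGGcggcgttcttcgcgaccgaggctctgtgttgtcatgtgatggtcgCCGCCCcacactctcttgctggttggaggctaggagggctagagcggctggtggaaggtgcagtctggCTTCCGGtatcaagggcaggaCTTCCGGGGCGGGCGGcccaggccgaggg
Gm527: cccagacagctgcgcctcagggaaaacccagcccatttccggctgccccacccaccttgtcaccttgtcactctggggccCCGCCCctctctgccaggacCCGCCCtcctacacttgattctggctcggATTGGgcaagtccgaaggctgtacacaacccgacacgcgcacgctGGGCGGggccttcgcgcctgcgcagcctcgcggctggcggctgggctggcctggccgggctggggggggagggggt
Zfp617: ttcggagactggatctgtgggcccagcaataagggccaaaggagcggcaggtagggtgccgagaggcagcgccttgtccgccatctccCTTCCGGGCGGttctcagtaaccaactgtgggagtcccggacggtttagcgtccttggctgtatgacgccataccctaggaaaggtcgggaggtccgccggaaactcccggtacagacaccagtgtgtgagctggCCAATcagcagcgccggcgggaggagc
All 5 promoters held GC boxes and an NF-Y match, and none held a TATA box. GC content of these 250 bases ran from 62.8% in Zfp617 to 70.4% in Hook1 and Gm527. The stretches lay at chr4:95967129-95967378 on the plus strand (Hook1), chr11:5878257-5878506 on the minus strand (Pold2), chr7:27553030-27553279 on the plus strand (2310022A10Rik), chr12:64917661-64917910 on the plus strand (Gm527) and chr8:71922575-71922824 on the plus strand (Zfp617). An E2-box match stood in the Hook1 promoter and in that of 2310022A10Rik, and ETS matches stood in 2310022A10Rik and Zfp617.

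Hook1, which encodes a protein linking cargo to microtubules, had the best-ranked region of the 2421. Its region spanned chromosome 4 from 95966932 to 95967502, with an authors' fold enrichment over background of 9.35 in Zeb1-CKO 1 and 10.3 in Zeb1-CKO 2, against 9.2 in control 2. These peaks stood at percentiles 2.1, 1.74 and 7.1 of their lists, and the nearest control 1 peak was 805454 bp away. The next were the vitamin B12 transporter gene Abcd4, the DNA polymerase delta subunit gene Pold2 and the mitotic kinesin gene Kif14. At Kif14 the peaks stood at percentiles 9.08 and 1.71 in the Zeb1-CKO libraries and 3.12 in control 2, and a control 1 peak lay 13010 bp away. Acvrl1, which encodes the endothelial BMP receptor ALK1, was also among the 12, with fold enrichments of 6.44 and 9.37 in the Zeb1-CKO libraries and 10.7 in control 2. Its region lay 53 bp beyond the high-coordinate end of the gene, at chromosome 15 from 101145389 to 101145905, and stood at percentiles 10.4, 2.72 and 1.83. Others of the 12 were at 2310022A10Rik with the lysosomal gene Pld3, Gm527 with Gm51965, the zinc-finger gene Zfp617, the peptidase gene Dpp3 and Ppp1r12b, a regulatory subunit of myosin phosphatase.

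Such strong regions were rare among those missing from control 1. Only 5 of the 2421 stood in the top 10% of all 3 lists, against 691 of the 3823 regions held by all 4 libraries. In the top 25% of the 3 lists there were 103 (4.25%) of the regions missing from control 1, against 1656 (43.3%) of those held by all 4. Median percentiles were 55.8 in Zeb1-CKO 1, 39.6 in Zeb1-CKO 2 and 54.2 in control 2 for the regions missing from control 1, against 20.5, 14.6 and 20.6 for those held by all 4. The regions held by both Zeb1-CKO libraries only lay lower still, at 73.7 and 64.1. At the weak end stood Hyal2 (a hyaluronidase), Mycl (a Myc family factor) and Gtf2ird1, each with 1 peak at percentile 100 of a list.

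**Figure D1:**
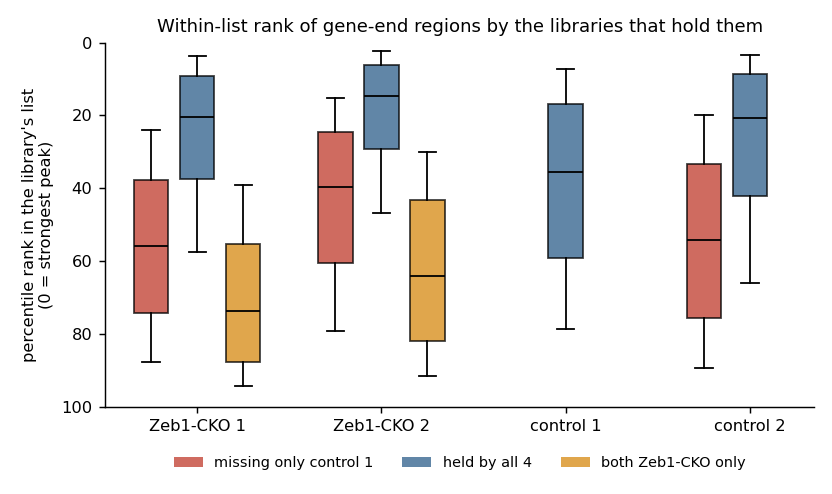
Percentile rank within each library's own list (vertical axis, 0 is the strongest peak) of gene-end regions missing only control 1, held by all 4 libraries, or held by both Zeb1-CKO libraries only. Lines are medians, boxes quartiles and whiskers the 10th and 90th percentiles. In Zeb1-CKO 1, Zeb1-CKO 2 and control 2 the regions missing only control 1 have medians of 55.8, 39.6 and 54.2, below those held by all 4.

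The share that control 1 lacked increased with weaker rank in the other lists. Of the 6244 gene-end regions held by the other 3 libraries, 38.8% were missing from control 1. Where the weakest rank was within percentile 10, 5 of 696 were missing (0.718%). Between percentiles 40 and 50 this was 218 of 639 (34.1%), and beyond percentile 90 it was 422 of 523 (80.7%). Regions away from gene ends were missing more often, 57.8% of 3075 in all, and in each of the 10 bins of rank the share at gene ends was the lower. Between percentiles 40 and 50 it was 34.1% at gene ends against 52.1% elsewhere. Rank and list length move together with this pattern, and their part in it was not tested beyond these counts. Each list was also limited to its 7608 strongest peaks, as many as control 1 has. Of the 2421 regions, 582 (24.0%) then had a peak in all 3 other lists, against 2833 of the 3823 held by all 4 (74.1%).

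**Figure D2:**
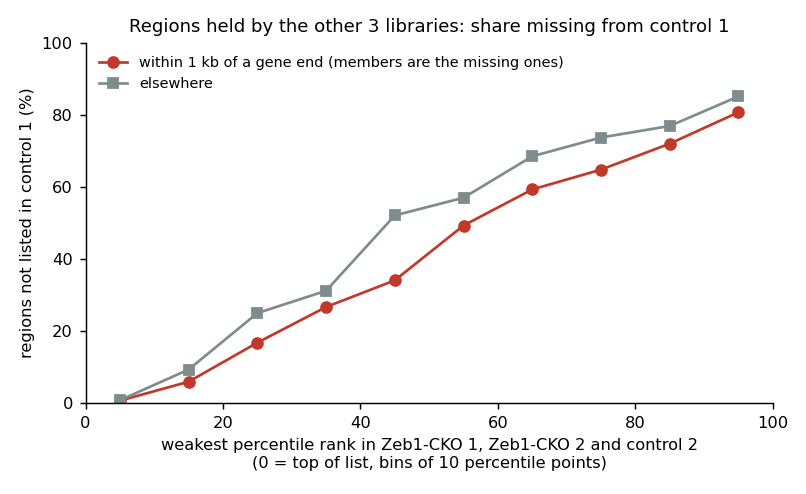
Share of regions held by Zeb1-CKO 1, Zeb1-CKO 2 and control 2 that control 1 did not list (vertical axis, %), by the weakest percentile rank over those 3 lists in bins of 10 points (horizontal axis). At gene ends the share runs from 0.718% in the first bin to 80.7% in the last, and elsewhere from 0.84% to 85.1%.

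The 3 libraries that held these regions ranked them only loosely alike. Spearman's rho of the percentile ranks over the 2421 regions, which share libraries and the lower cut-off of each list, was 0.484 between the Zeb1-CKO libraries. It was 0.362 for Zeb1-CKO 1 with control 2 and 0.478 for Zeb1-CKO 2 with control 2. Zeb1-CKO 1 and control 2 have lists of nearly equal length, and 1166 of the 2421 regions (48.2%) stood nearer the top in Zeb1-CKO 1 than in control 2, against 51.3% of regions held by all 4. The median difference in percentile, Zeb1-CKO 1 minus control 2, was 1.09, with quartiles of −15.2 and 19.4.

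At the level of whole libraries, gene-end regions held numbered 7467 and 8717 in the Zeb1-CKO libraries, against 4033 and 7319 in the controls. The means were 8092 ± 884 and 5676 ± 2324 (SD, n = 2 each), a ratio of 1.43. The difference had p = 0.333 by an exact permutation test (two-sided), and no smaller p is possible with 2 against 2. Without control 1 the ratio was 1.11. Of the regions each library held, 54.7% and 43.9% lay at gene ends in the Zeb1-CKO libraries, against 53.2% and 53.7% in the controls.

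Most of the regions lay at gene starts, as did most regions held by all 4. Of the 1975 whose nearby ends could be placed on a strand, 1931 (97.8%) were at a gene start and 44 only at the far end of a gene. The share at a start was 98.9% for regions held by all 4 and 93.9% for both Zeb1-CKO libraries only. Another 446 of the 2421 regions (18.4%) could not be placed. A gene end lay inside the region in 2067 of 2421 cases (85.4%), against 90.7% of regions held by all 4 and 73.0% of those held by both Zeb1-CKO libraries only. Starts of genes on both strands, as at a divergent promoter, were within reach of 209 regions (8.63%), against 12.5% for regions held by all 4. These shares are of merged regions, with a median width of 583 bp, against 705 bp for those held by all 4 and 523 bp for both Zeb1-CKO libraries only. The part of width in the shares was not tested. Because regions held by all 4 were merged from 1 more list, distances to the start were compared on the Zeb1-CKO 2 peak alone, and widths on single peaks of a library. The centre of the Zeb1-CKO 2 peak lay a median of 44.0 bp downstream of the start where control 1 had no peak, against 1.25 bp where all 4 did. Upstream centres made up 37.4% and 49.5% of these.

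**Figure D3:**
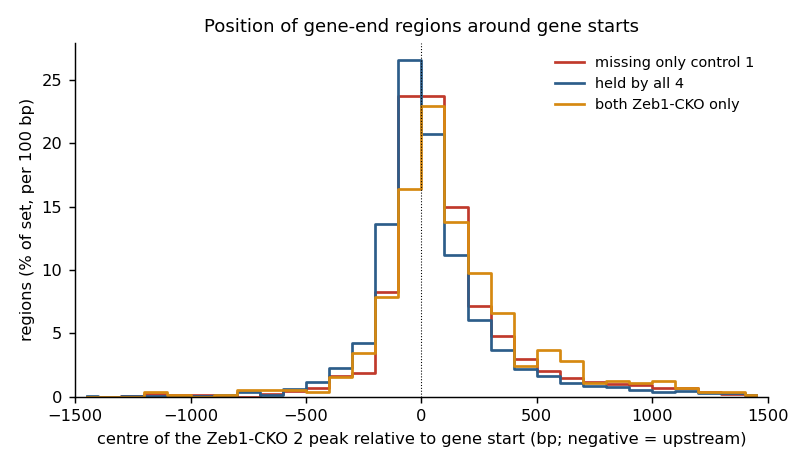
Centre of the Zeb1-CKO 2 peak relative to the nearest gene start (horizontal axis, bp, negative is upstream), as the percentage of each set per 100 bp (vertical axis), for 1931 regions missing only control 1, 3186 held by all 4 and 573 held by both Zeb1-CKO libraries only. The medians are 44.0, 1.25 and 75.5 bp downstream of the start.

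Narrow peaks were missing from control 1 more often than wide ones. The strongest peak in the region had a median width of 427 bp in Zeb1-CKO 1, 436 bp in Zeb1-CKO 2 and 330 bp in control 2, against 583, 563 and 456 bp in regions held by all 4. Among gene-end regions held by the other 3 libraries that overlapped a RefSeq promoter, 656 of 977 (67.1%) were missing where the Zeb1-CKO 2 peak was at most 379 bp wide. These were the narrowest 20% of peaks. In the widest 20%, from 776 bp, 255 of 990 (25.8%) were missing. Among regions with a weakest rank within percentile 50 these shares were 42.0% and 6.38%, and beyond it 79.3% and 46.9%. The widest merged regions missing from control 1 were at Arap3, Cd3eap with Ppp1r13l, and Gm52782 with Nsd2. Arap3, a GTPase-activating gene of endothelial cells, had a region of 2808 bp on chromosome 18, with fold enrichments of 3.35 and 4.42 in the Zeb1-CKO libraries and 5.06 in control 2.

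Promoters at these regions were CpG-rich, much like those open in all 4 libraries. Of the 2806 genes, 2290 had a promoter of 300 bases (250 before and 50 after a start) in the RefSeq table, and 1852 regions overlapped at least 1. The 2279 promoters so overlapped, of 2047 genes, had a median GC content of 62.7% and a median CpG observed over expected ratio of 0.824. Promoters overlapped by regions held by all 4 had 63.7% and 0.84, and all 21045 promoters of protein-coding genes had 56.7% and 0.574. A ratio of at least 0.6 was reached by 84.5%, against 89.0% for regions held by all 4, 73.5% for both Zeb1-CKO libraries only and 19.8% for promoters with no region in any library. With these regions divided into 5 classes of GC content, the share missing from control 1 was 44.2%, 37.6%, 36.0%, 31.5% and 38.8% from the lowest class to the highest.

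The E2-box, the sequence that Zeb1 binds, was found in a larger share of these promoters than of those open in all 4 libraries, and in about the share seen over all promoters. CAGGTG on either strand was in 438 of 2279 (19.2%), against 12% for regions held by all 4, 27.6% for both Zeb1-CKO libraries only and 19.9% of all promoters. The difference between regions missing from control 1 and regions held by all 4 was also present within each class of rank. With a weakest rank within percentile 50 it was 20.1% where control 1 had no peak, against 12.4% where all 4 did, and beyond percentile 50 it was 19% against 10.9%. Among promoters with a CpG ratio of at least 0.6 the shares were 19.4% and 11.6%, and below it 18.4% and 15.6%. Read the other way, control 1 lacked 47.6% of the 921 promoters with an E2-box that the other 3 libraries held, and 34.3% of the 5374 without. Per library, the E2-box was in 15.8% and 16.7% of promoters with a gene-end peak in the Zeb1-CKO libraries, against 12% and 15.0% in the controls. The 4 shares stood in the order of list length, and the part of list length in them was not tested. Promoters here include several starts of 1 gene, and a letter match is not a bound site.

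CCAAT, the NF-Y motif, was found in a smaller share of these promoters, and that share differed with rank. It was in 35.8% of promoters missing from control 1, against 50.1% where all 4 libraries had a peak and 38.5% of all promoters. Within percentile 50 the shares were 52.1% and 55.8%, and beyond it 30.9% and 33.5%, each pair closer than the shares over all ranks. The ETS motif, bound by a family that includes endothelial factors, was in 24.9%, against 21.6% for regions held by all 4 and 11.7% of all promoters. GC boxes were in 72.4%, against 76.6% and 46.7%. The CRE core was in 12.7%, against 16.6% and 8.58%, and the TATA box in 5.7%, against 4.38% and 12.7%. The E-box CACGTG and the YY1 and NRF1 cores were each within 1.5 percentage points of the share in regions held by all 4.

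**Figure D4:**
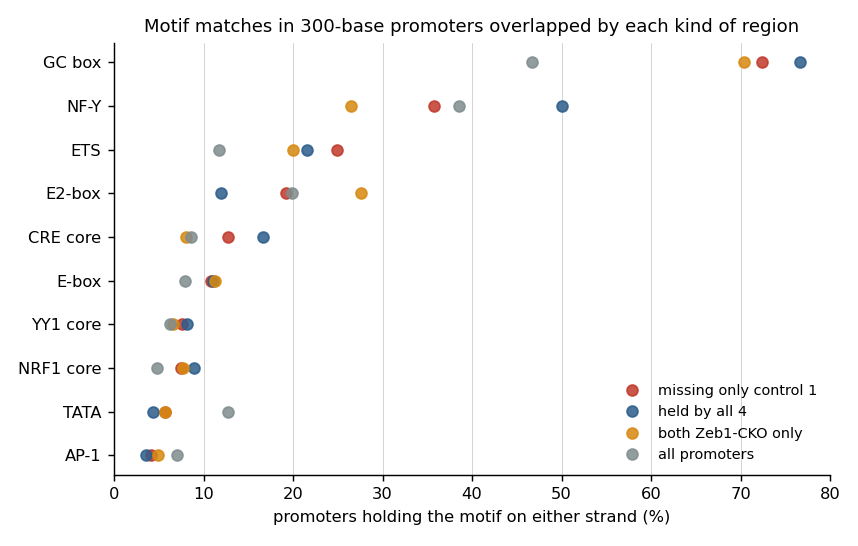
Share of 300-base promoters with at least 1 match on either strand (horizontal axis, %), for 10 motifs (rows), in promoters overlapped by regions missing only control 1, held by all 4, or held by both Zeb1-CKO libraries only, and in all promoters. The E2-box stands at 19.2% for regions missing only control 1 and 12% for those held by all 4, and NF-Y at 35.8% and 50.1%.

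A control 1 peak was within 1 kb of 3 regions, within 10 kb of 205 (8.47%) and within 100 kb of 1625 (67.1%), and the median distance was 58188 bp. For regions held by both Zeb1-CKO libraries only, 10.7% had a control 1 peak within 10 kb, and the median distance was 55798 bp. The 3 closest were at Paip1, Rsph1 and Cfl1, with control 1 peaks 43, 674 and 949 bp away. Paip1, a regulator of translation, had fold enrichments of 3.81 and 5.28 in the Zeb1-CKO libraries and 4.63 in control 2. Of the 2806 genes, 235 (8.37%) had a control 1 peak somewhere in the gene and 91 (3.24%) had one at a gene end. Members just inside the 1 kb window were at Cbarp, Frem2 and Zfp688, at 982, 981 and 981 bp. Just outside it, regions with the same pattern lay 1006 bp from Cgn and from Nfic and 1017 bp from Sh2b1.

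Zeb1 was among the genes with such a region. The region, at chromosome 18 from 5591166 to 5591965, contained the gene's end of lower coordinate. Its peaks had fold enrichments of 3.87 and 4.59 in the Zeb1-CKO libraries and 3.67 in control 2, at percentiles 57.8, 56.6 and 97.1. In control 2 the peak was thereby near the bottom of the list. The nearest control 1 peak was 158052 bp away. Whether Zeb1 was deleted or expressed cannot be read from peaks.

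Among Zeb1 partners and related factors, 7 of the 22 listed genes with a gene-end region had one missing only control 1 (31.8%). Over all 10499 protein-coding genes with a gene-end region this was 26.7%, the share against which the lists below are set, and the lists were chosen with earlier results of these data known. The median weakest percentile of the 7 was 86.0, against 70.6 over all 2806 genes. Snai1, another repressor that binds E-boxes, ranked best, with fold enrichments of 5.78 and 6.9 in the Zeb1-CKO libraries and 5.83 in control 2. Rcor3 and Kdm1a, a corepressor and a histone demethylase of the CoREST complex, and the coactivator gene Yap1 followed in the order of rank with Yap1 between them. Outside the naming rule, Tcf12 and Sirt1 also had such a region, besides Zeb1.

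Endothelial identity genes had 6 such genes of 17 (35.3%), with a median weakest percentile of 71.0. Gene-end peaks were listed at 14 and 17 of the 30 listed genes in the Zeb1-CKO libraries, against 5 and 13 in the controls. For all 21631 protein-coding genes the counts were 8586 and 9824, against 4826 and 8394. Control 1 was thus the lowest in both, and the part of list length in the endothelial counts was not tested. Nos3, the endothelial nitric oxide synthase, had fold enrichments of 4.18 and 5.24 in the Zeb1-CKO libraries and 5.15 in control 2, in a region shared with Atg9b and 732 bp from the nearer end of Nos3. Sox7, a SoxF factor of vessel development, had 4.93 and 5.53 in the Zeb1-CKO libraries and 5.02 in control 2. The VEGF receptor genes Flt4 (VEGFR3) and Kdr (VEGFR2) had percentiles between 55.4 and 79.1 in the 3 lists. Kdr had 2 such regions on chromosome 5. One, from 75978261 to 75978659, lay 413 bp from its start and did not contain it. The other, from 75933567 to 75934098, was at its far end. Outside the naming rule, Flt1 (VEGFR1) and the ETS factor gene Ets2 completed the 6. Thereby all 3 VEGF receptor genes had a region within 1 kb of the start that control 1 alone did not list. Those of Flt1 and Flt4 contained the start, and that of Kdr did not. Their weakest percentiles were 88.3 (Flt1), 62.9 (Flt4) and 79.1 (Kdr).

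TGF-beta and BMP genes had 10 of 28 (35.7%), with a median weakest percentile of 72.7. Besides Acvrl1, these were led by Id1, a target of BMP signalling, with fold enrichments of 3.99 and 4.78 in the Zeb1-CKO libraries and 5.1 in control 2. Smad3, which carries TGF-beta signals to the nucleus, had 4.94 and 6.38 in the Zeb1-CKO libraries and 5.31 in control 2. The activin receptor gene Acvr1b had 4.59 and 6.79 in the Zeb1-CKO libraries and 5.07 in control 2. The remaining members were Tgif1, Smad4, Smad7, Smurf1, Bmp6 and Smad1, so that 4 of the listed Smad genes were included.

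Notch genes had 7 of 25 (28.0%), near the share over all genes, with a median weakest percentile of 83.3. The Notch target gene Hes1 stood at percentiles 26.4 and 17.2 in the Zeb1-CKO libraries and 63.9 in control 2, and the coactivator gene Maml2 at 43.4 and 45.4 against 76.3. Notch2 stood at 45.3 and 37.6 in the Zeb1-CKO libraries and 83.3 in control 2, and Notch1, Numbl and Notch4, the last at its far end, were weaker. Barrier and Wnt genes had 6 of 24 (25%). Slc16a1, a monocarboxylate transporter, led them with fold enrichments of 5.13 and 7.56 in the Zeb1-CKO libraries and 6.16 in control 2, followed by the tight junction gene Ocln, the Wnt receptor gene Fzd6 and the Wnt repressor gene Tcf7l1.

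Sprouting and tip cell genes had 3 of 16 (18.8%), namely Unc5b, Nrp2 and Pdgfb. Unc5b, a netrin receptor of tip cells, had fold enrichments of 5.95 and 7.91 in the Zeb1-CKO libraries and 7.16 in control 2, at percentiles 15.6, 10.0 and 17.0. The co-receptor gene Nrp2 stood at percentiles 61.8 and 35.0 in the Zeb1-CKO libraries and 68.9 in control 2. Pdgfb, which recruits pericytes, had fold enrichments of 3.74 and 5.15 in the Zeb1-CKO libraries and 5.18 in control 2. Epithelial genes had 2 of 24 (8.33%), the polarity gene Llgl2 in a region shared with Tsen54 and the transcription factor gene Elf3. The choice of regions required a control 2 peak, which most of the 24 lacked at their ends, and this limited the share. Elf3 had fold enrichments of 4.43 and 8.01 in the Zeb1-CKO libraries and 3.89 in control 2, so the control 2 peak, at percentile 91.9, was among the weakest of its list. The epithelial genes with a gene-end peak numbered 20 and 24 in the Zeb1-CKO libraries, against 3 and 6 in the controls. This is out of 32 listed genes, of which 31 were in the gene table. Over all 21631 protein-coding genes the numbers were 8586 and 9824 in the Zeb1-CKO libraries, against 4826 and 8394 in the controls. The difference between the groups was not tested for this list.

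Lists of genes used by most cells had shares between 25.8% and 37.7%, on both sides of the 26.7% over all genes. Oxidative phosphorylation genes had 23 of 61 (37.7%), equal in number to the 23 genes of that list with a region held by all 4. Atp5e, a subunit of ATP synthase, ranked best in a region shared with Prelid3b. It had fold enrichments of 6.72 and 12.4 in the Zeb1-CKO libraries and 10.1 in control 2, and a control 1 peak lay 8665 bp away. Ndufb3 of complex I, Cox7c of complex IV and Uqcrc1 of complex III followed. The tRNA synthetase genes had 13 of 35 (37.1%), led by Mars2, the mitochondrial enzyme for methionine, with fold enrichments of 7.09 and 7.7 in the Zeb1-CKO libraries and 7.35 in control 2. Cytosolic ribosomal genes had 23 of 71 (32.4%), led by Rps26, and mitochondrial ribosomal genes 16 of 62 (25.8%), led by Mrps9.

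Genes of RNA polymerase II and Mediator had 20 of 62 (32.3%) and the lowest median weakest percentile of the lists with at least 10 such genes, 55.0. Med7, a Mediator subunit, had fold enrichments of 6.58 and 7.45 in the Zeb1-CKO libraries and 8.8 in control 2. The general factor genes Gtf2e1, Taf10 and Gtf2h3, each in a region shared with a neighbour, also stood within percentile 25 of all 3 lists, Gtf2h3 at its far end, 820 bp away. Chromatin regulators had 20 of 68 (29.4%), led by the histone methyltransferase genes Setd2, Setd1a (at its far end, with Hsd3b7) and Ehmt1, with a median weakest percentile of 82.8. Splicing genes had 19 of 68 (27.9%), led by U2af1 and Snrpc, and proteasome genes 10 of 36 (27.8%), led by Psmd10 on X.

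Cell cycle genes had 15 of 50 (30.0%), of which 6 stood in the top 50% of all 3 lists. Over all 2806 genes with such a region, 635 did, and among the RNA polymerase II and Mediator genes 8 of 20 did. Ccnb1 (cyclin B1) had fold enrichments of 5.75 and 9.11 in the Zeb1-CKO libraries and 8.88 in control 2. Members of the anaphase-promoting complex were Anapc11, Anapc5, Anapc4 (at its far end), Anapc2, Cdc23 and Cdc27, and the mitotic kinase gene Aurka shared its region with Cstf1. DNA repair genes had 15 of 55 (27.3%), with Ercc2, Ercc3, Ercc8 and Ercc4 of nucleotide excision repair among them, and autophagy genes 11 of 37 (29.7%), led by Map1lc3a. Immediate early genes had 4 of 21 (19%), namely Nr4a1, Ier3 (at its far end, with Flot1), Egr3 and Fosl1, while 16 of their 24 genes had a region held by all 4.

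The set held few markers of other retinal cells, and their shares were not set against the 26.7% over all genes. Most of these lists were too short for it, and the photoreceptor share was limited by the choice of regions. It held 0 of 12 photoreceptor genes with a gene-end region, 0 of 3 pericyte and smooth muscle genes, 0 of 3 leukocyte genes, and 1 of 8 glial genes, which was Hes1. Of 5 inner neuron genes it held Syt1, which encodes a synaptic vesicle calcium sensor, at percentiles 75.2 and 32.4 in the Zeb1-CKO libraries and 26.1 in control 2. Of 28 photoreceptor genes, 2 and 10 carried a peak at an end in the Zeb1-CKO libraries, against 2 and 11 in the controls. The choice of regions required a Zeb1-CKO 1 peak, which most of these photoreceptor genes lacked at their ends. Of 18 listed glial genes, 6 had one.

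**Figure D5:**
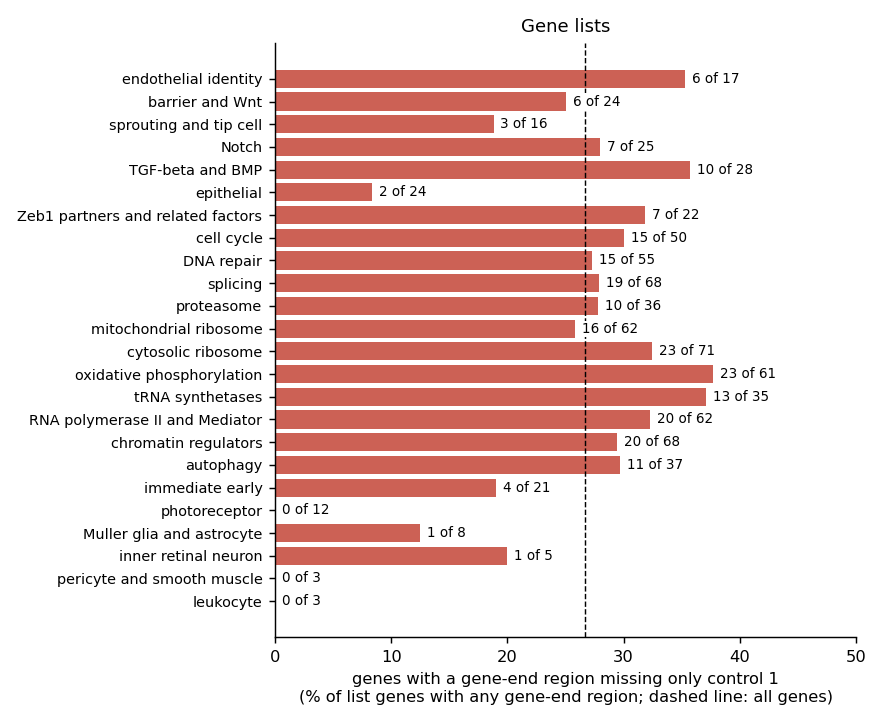
Share of genes with a gene-end region missing only control 1 (horizontal axis, % of the genes of each list with any gene-end region), for 24 gene lists (rows), with counts beside the bars. The dashed line is the share over all 10499 genes, 26.7%, and the lists run from 0 for photoreceptor, pericyte and leukocyte genes to 37.7% for oxidative phosphorylation.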

How the data were processed

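ATAC-seq peak lists of 4 libraries were used, 1 list per library and not pooled. The submitters' processing notes name MACS2 2.1.1, Bowtie2 2.3.2, Trimmomatic 0.36, SAMtools 1.3, bedtools 2.26.0 and Picard 2.9.2, with mm10 as the build. Their settings, the filter and any shift for the transposase offset are not given in the sources used here. The authors' deposited lists give each peak a fold enrichment over its own library's background (a ratio). They also hold its significance as −log10 p and as −log10 q, and the authors' whole-number score, which follows the −log10 q up to a ceiling. The deposited −log10 q was above 1 in every list. These values ranked peaks within a list only, since depth is unknown. A region's rank in a library is that of its strongest peak there, by −log10 q and then fold enrichment, as a percentile of the whole list.

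Genes came from RefSeq on GRCm38.p6 (21631 protein-coding genes, 17274 with a strand from the promoter table), whose chromosomes are those of mm10. In 710 of 710 overlapping promoters on opposite strands the sequences were reverse complements. The exact permutation test was the only test. Merging, holding and windows were tested on simulated data. The regions, the 24 gene lists and the motifs were chosen with earlier results of these data known. Named genes were Zeb1, the 12 best-ranked regions, up to 4 per list in rank order, the 3 widest, the 3 weakest, and the 3 on each side of the 1 kb window. Some genes under this rule are not reported here. The 3 nearest to a control 1 peak and others were added after their values were seen. Replicate numbers pair nothing that the labels state. The alternatives tried were a minimum −log10 q of 3, equal list lengths, at least 50% coverage, peaks within 1 kb merged, windows of 500 bp and 3 kb, gene starts only, each library left out and a replicate block. Analysis used Python 3.11.15 with pandas 2.3.3 and scipy 1.17.1.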

Additional observations from a re-analysis of the deposited data

How the results depend on the processing

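The number of gene-end regions missing only control 1 stayed within 1.5 times of 2421 at a minimum −log10 q of 3 (2233), at least 50% coverage (2144), peaks within 1 kb merged (2433), windows of 500 bp (2318) and 3 kb (2649), and gene starts only (1931). The regions were not always the same. At that minimum, 1162 of the 2421 overlapped a region of the new set, and with 50% coverage 1470 did. With the strongest 7608 peaks per library the count was 582, which follows from the shorter lists. With 1 library and its condition left out the count ran from 2514 (without Zeb1-CKO 2) to 6242 (without control 1, where regions held by all 4 also enter). The ratio of gene-end regions held, Zeb1-CKO over control, ran from 1.11 without control 1 to 2.01 without control 2, against 1.43 with all 4, and from 1.41 to 1.73 under the other settings. With the replicate number as a block, an exact permutation test within replicate pairs gave p = 0.5 for the ratio of 1.43, the smallest that 4 arrangements allow. At a minimum −log10 q of 3 the median weakest percentile was 46.6 (71.4 as reported), control 1 peaks lay within 10 kb of 3.4% of the regions (8.47%), and gene starts made up 82.9% (79.8%), since weak peaks of every list, control 1 included, are then gone. Under merging within 1 kb and the other windows, the median weakest percentile ran from 71.1 to 71.8. The share with a control 1 peak within 10 kb then ran from 8.3% to 9.17%, and that of gene starts from 78.5% to 80.2%. Most regions in these sets are the same ones. Depth is unknown, which limits every statement on absence.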

Other observations

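By chromosome, the share of gene-end regions missing only control 1 ran from 21.6% on chromosome 12 to 30.4% on chromosome 2, against 25.5% over all, and was 27.6% on X (67 of 243). Of the 14 gene symbol families with at least 40 genes holding a gene-end region, 12 had a share of genes between 20% and 28.7%, against 26.7% over all genes. Zinc-finger genes of the Zfp family, the largest, had 70 of 259 (27.0%), and solute carriers of the Slc family 51 of 178 (28.7%). The other families were Rpl, with 15 of 42 (35.7%), and Rnf, genes of RING finger proteins that include many ubiquitin ligases, with 23 of 53 (43.4%). Both were singled out after their values were seen. In all, 22 genes had 2 such regions each, among them the receptor gene Erbb2, with one region at its start and one at its far end, shared with Mien1.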
